A study of Mus musculus with 29 samples.

Results

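The genes described here encode epithelial alarmins and inflammatory cytokines, Il33, Il1rl1, Tslp, Il18, Il1a, Il1b, Il1rn, Il6, Csf2 and Tnf. They were chosen by name, and every probe set that the array annotation pairs with 1 of them was read in all 29 arrays of a mouse lung tumour study. Of the 10 genes, 9 had a probe set, which gave 11 probe sets, 3 for Il1rn and 1 for each other gene. The arrays held a probe set for 18193 genes in all. Il1rl1, the gene of the IL-33 receptor ST2, was not analysed here because no probe set is named for it in the annotation used.

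The study hybridised RNA from 28 lung tumours and 1 normal lung, 1 array per sample. The 6 TI-KM recurrences and the 14 TI-KM primary tumours carried CCSP-rtTA, TRE-KrasV12 and TRE-Mad2. The 8 TI-K primary tumours carried CCSP-rtTA and TRE-KrasV12, and the normal lung carried CCSP-rtTA alone. All mice were of a mixed 129/Bl6 background. CCSP-rtTA places the tetracycline transactivator under the club cell promoter, so the transgenes act in the airway and alveolar cells that use it, while each sample is whole tissue that also holds immune, stromal and vascular cells. In such bulk samples, fewer cells of a type and less RNA per cell cannot be told apart. The series title concerns relapse after the oncogene is withdrawn. TI-KM primaries 1 and 2 share the title number 76. The labels do not say that the samples came from separate animals, so p-values measure the spread between these samples, which may be technical.

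Alarmins are cytokines that barrier cells hold ready and release when they are damaged or stressed. IL-33 and IL-1 alpha are stored in the cell and act once released, TSLP is secreted by epithelium, and IL-18 and IL-1 beta are made as precursors that caspase-1 cleaves inside inflammasomes. In the lung, IL-33 is made by alveolar type II cells, and GM-CSF, the product of Csf2, is made by the same cells and keeps alveolar macrophages alive and able to clear surfactant.

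Each value is an Affymetrix signal on a linear scale, scaled by the submitters so that arrays share a trimmed mean. Signals rank arrays for 1 probe set and cannot be set against those of another probe set. A gene was tested if, in at least 6 arrays, its probe set passed that array's 40th percentile (a signal between 41.9 and 115), which kept 14602 genes and 8 of the 9 cytokine genes. The probe sets of Il33, Il18 and Il1b passed the percentile in all 29 arrays, that of Il1rn in 28, Csf2 in 27, Il1a in 24, Il6 in 9 and Tslp in 7. Tnf passed in 4 arrays and was not kept. Differences are on the log2(signal + 20) scale, which understates changes of weak genes. They come from 1 limma model over all arrays. Calls rest on p-values adjusted by Benjamini-Hochberg over the genes kept, with 0.05 as the threshold.

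The arrays fall into sets within the groups. A high 18S ribosomal control signal, above 12000, marked 4 of the 6 recurrences and 6 of the 14 TI-KM primaries. Title numbers above 6000 marked 5 of the 8 TI-K primaries, and 2 recurrences, 8 TI-KM primaries and 3 TI-K primaries remained. The normal lung, with an 18S signal of 12569, was placed in no set. The mean log2 ratio of 3' to 5' control signals, a sign of RNA integrity, was 1.32 ± 0.45 in recurrences, 2.16 ± 0.67 in TI-KM primaries and 2.16 ± 0.41 in TI-K primaries (SD), against 2.59 in the normal lung. Recurrence 1 stands apart. Its summed signal of 4 B cell markers was 20248, against at most 2397 in the other recurrences, and its summed signal of 6 epithelial markers was 18123, against at least 36029 in the other recurrences. The normal lung is a single array whose spread was assumed to equal that of the tumours. It gave 17182 for the fat cell gene Cidea, which reached at most 265 in a tumour.

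The promoter sequences of Il33, Il1rn and Csf2 are shown because Il33 and Il1rn were called against normal lung and Csf2 had the smallest p of these genes between recurrences and TI-KM primaries. The sequences are from RefSeq (GRCm38.p6), run 5' to 3' on the gene's strand, and cover the 250 bases before a transcript start. Capitals mark matches, on either strand, to 3 motifs, namely AP-1 (TGANTCA), NF-kappaB (GGGANNNNCC) and the TATA box (TATAAA). The Il33 gene lies at chr19:29925113-29960718 and has 2 windows in the table, for separate transcript starts.
Il33 upstream start, chr19:29924863-29925112, plus strand: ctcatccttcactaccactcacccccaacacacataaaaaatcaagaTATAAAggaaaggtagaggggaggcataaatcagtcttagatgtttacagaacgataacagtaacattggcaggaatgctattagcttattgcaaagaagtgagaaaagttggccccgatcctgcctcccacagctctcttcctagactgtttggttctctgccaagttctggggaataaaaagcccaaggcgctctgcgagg
Il33 downstream start, chr19:29945540-29945789, plus strand: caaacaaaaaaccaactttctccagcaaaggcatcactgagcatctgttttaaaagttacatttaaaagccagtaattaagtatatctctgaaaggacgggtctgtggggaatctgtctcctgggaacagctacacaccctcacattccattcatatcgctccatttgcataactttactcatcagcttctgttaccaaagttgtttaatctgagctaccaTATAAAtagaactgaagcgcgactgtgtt
The upstream Il33 window held TATAAA beginning 203 bases before its start, and the downstream window held it 29 bases before its start. The Il1rn gene lies at chr2:24336860-24351491.
Il1rn upstream start, chr2:24336610-24336859, plus strand: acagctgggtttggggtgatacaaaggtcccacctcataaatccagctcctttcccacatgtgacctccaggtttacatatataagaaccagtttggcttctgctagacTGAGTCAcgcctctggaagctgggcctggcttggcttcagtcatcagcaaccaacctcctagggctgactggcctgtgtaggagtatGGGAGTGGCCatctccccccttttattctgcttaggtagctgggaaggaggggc
This window held an AP-1 match beginning 141 bases and an NF-kappaB match beginning 54 bases before the start, with no overlap between them. Il1rn windows 2 and 3, for downstream transcript starts and not shown, held no AP-1 and no NF-kappaB match. Window 3 held TATAAA beginning 14 bases after its start. The Csf2 gene lies at chr11:54247270-54249899.
Csf2 start, chr11:54249900-54250149, minus strand: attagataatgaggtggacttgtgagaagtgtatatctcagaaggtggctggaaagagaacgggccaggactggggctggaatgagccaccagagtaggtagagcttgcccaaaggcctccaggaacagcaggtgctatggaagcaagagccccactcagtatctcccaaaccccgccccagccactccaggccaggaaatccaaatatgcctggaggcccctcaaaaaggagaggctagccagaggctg
No motif matched in these Csf2 letters, and an NF-kappaB match began 22 bases after the start. Over 300-base windows that add 50 bases after the start, 13 windows of 9 of the 10 genes were searched. AP-1 matched in 3 of them, NF-kappaB in 4 and the TATA box in 7. Among the 32851 RefSeq windows of that length the shares were 7.81%, 20.7% and 13.6%. A match is a description of letters and does not show that a factor binds there.

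The question of the comparison with normal lung is which cytokine transcripts stood above their level in that single normal lung sample. Il33, Il18, Il1a, Il1rn and Il6 were higher in every one of the 28 tumours than in the normal lung, which is 5 of the 8 genes kept. Il1a, Il1rn and Il6 did not pass the 40th percentile in the normal lung and were kept through tumour arrays alone. For these genes the filter favours this direction, so it is a description only. The same holds for their limma calls as higher and for their part in the medians below. Over all genes kept, 12.6% were higher and 12.4% lower in every tumour, and none of the 8 cytokine genes was lower in every tumour. The limma test called Il33 and Il1rn higher in recurrences (2 of 8 genes; 12.5% of all genes were called, 6.4% as higher). It called the same 2 genes higher in TI-KM primaries (14.9% of all genes, 7.69% as higher). In TI-K primaries it called Il33 and Il18 (13.5% of all genes, 6.7% as higher). The median difference of the 8 genes from normal lung was 1.47 in recurrences, 1.82 in TI-KM primaries and 2.02 in TI-K primaries on the log2 scale, against 0.14, 0.096 and -0.00088 over all genes. These comparisons share the single normal lung, so they are not independent of each other.

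**Figure D1:**
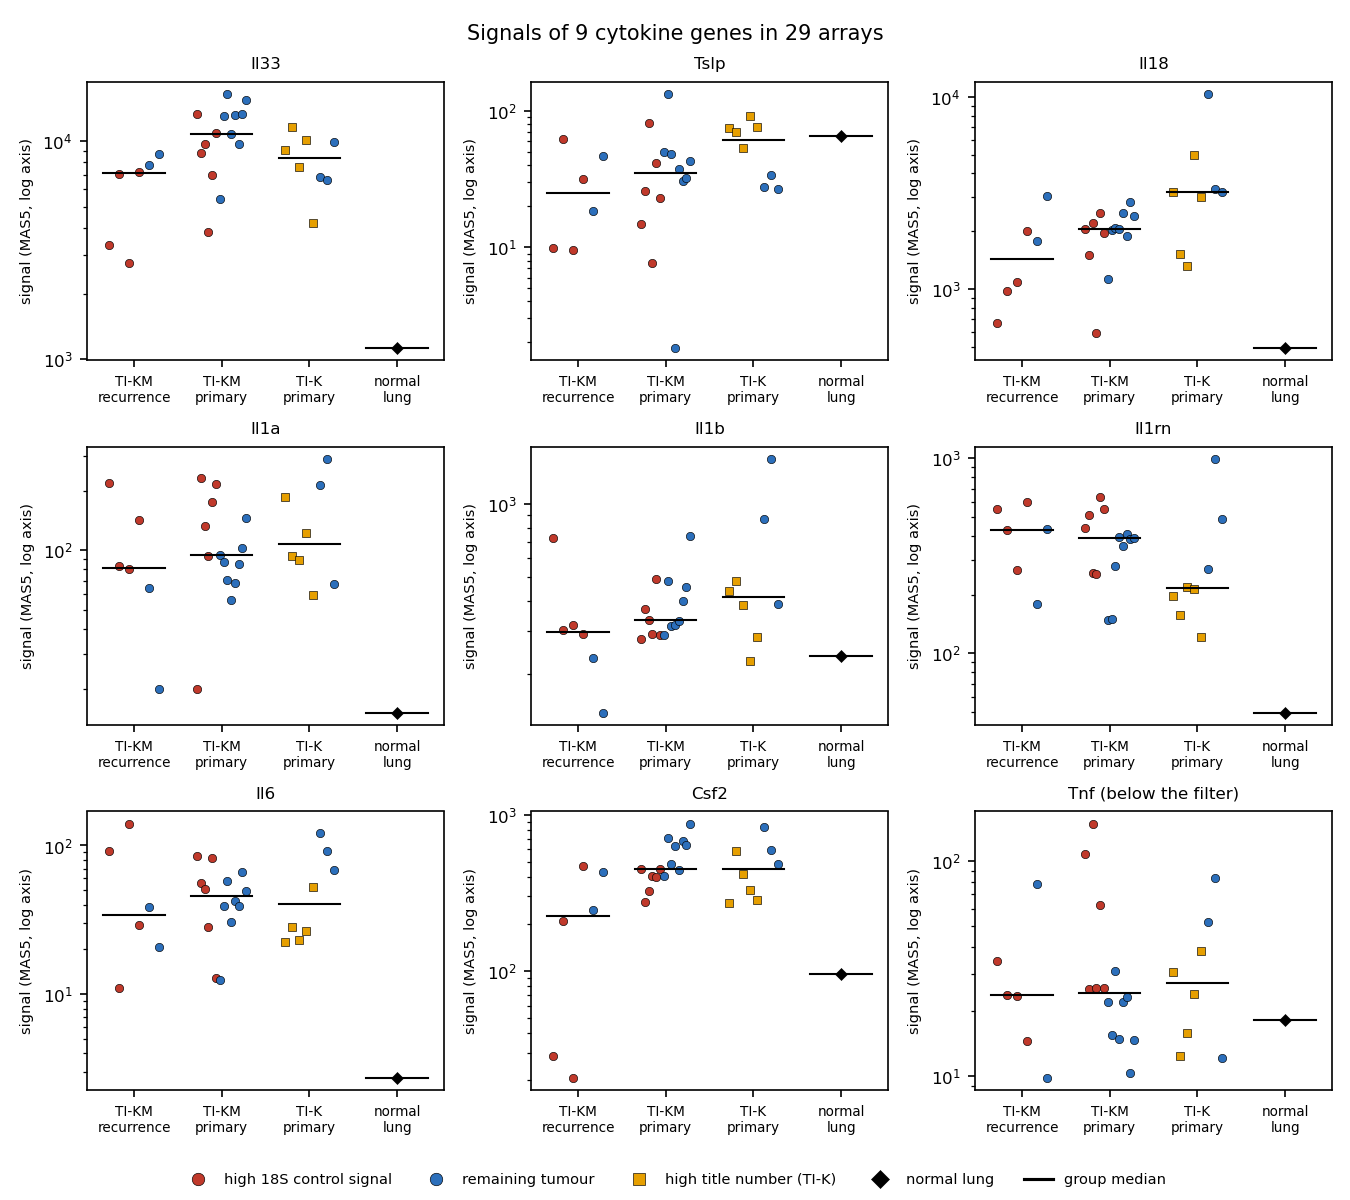
Signals (MAS5 units, log axis) of 9 cytokine genes in every array, with TI-KM recurrences at the left, then TI-KM primaries, TI-K primaries and the normal lung. Points are arrays coloured by array set, lines are group medians, and Il33 lies between 2748 and 16333 in every tumour, against 1132 in the normal lung.

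Il33 was called higher than in normal lung in each of the 3 tumour groups. Its product signals through ST2 to innate lymphocytes, mast cells and T cells. The probe set gave 3351, 7019, 2748, 7220, 7778 and 8673 in recurrences 1 to 6. TI-KM primaries ranged between 3817 and 16333 with a median of 10781, and TI-K primaries between 4189 and 11508 with a median of 8353, against 1132 in the normal lung. Every tumour lay above the normal lung, and the tumour groups overlapped. The limma difference from normal lung was 2.29 ± 0.59 (SE) in recurrences (4.90-fold, Benjamini-Hochberg adjusted p = 0.00863). It was 3.12 ± 0.56 in TI-KM primaries (8.71-fold, adjusted p = 2.12e-04) and 2.78 ± 0.58 in TI-K primaries (6.88-fold, adjusted p = 0.00109). The recurrence call was lost with the high-18S arrays alone (2.02, adjusted p = 0.0606) and with arrays scaled to a common median (2.32, adjusted p = 0.0789). Without recurrence 1 the difference was 2.44 (adjusted p = 0.00381).

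Tslp, on chromosome 18, encodes a cytokine that acts on dendritic cells and innate lymphocytes, and its signals were weak. They were 9.82, 62.2, 9.54, 31.9, 18.6 and 47.1 in recurrences 1 to 6. They ran between 1.83 and 134 in TI-KM primaries, with a median of 35.1, and between 26.8 and 92.7 in TI-K primaries, with a median of 61.8, against 66.1 in the normal lung. Of the 28 tumours, 6 exceeded the normal lung, and the groups overlapped widely. The differences from normal lung were -0.90, -0.67 and -0.23 in recurrences, TI-KM primaries and TI-K primaries, none of them called by limma (adjusted p between 0.461 and 0.889).

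Il18 (chr9:50554700-50581841) encodes a cytokine that drives interferon-gamma production by T and NK cells. It gave 666, 977, 1081, 2008, 1781 and 3065 in recurrences 1 to 6. TI-KM primaries ranged between 590 and 2834 with a median of 2062, and TI-K primaries between 1315 and 10346 with a median of 3203, against 495 in the normal lung. All tumours lay above the normal lung, the lowest of them TI-KM primary 4 and recurrence 1. The limma difference from normal lung was 1.47 ± 0.73 (SE) in recurrences (Benjamini-Hochberg adjusted p = 0.202), 1.88 ± 0.70 in TI-KM primaries (adjusted p = 0.0712) and 2.64 ± 0.72 in TI-K primaries (6.23-fold, adjusted p = 0.0118). Without TI-KM primary 4 the TI-KM difference was 2.00 and called (adjusted p = 0.0324).

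Il1a (chr2:129299609-129310186), the intracellular alarmin of the interleukin-1 pair, gave 218, 83.5, 80.1, 142, 64.5 and 19.9 in recurrences 1 to 6. It ranged between 19.8 and 231 in TI-KM primaries, with a median of 94.2, and between 59.3 and 289 in TI-K primaries, with a median of 108, against 15.1 in the normal lung. The normal lung was lowest, though recurrence 6 and TI-KM primary 1 lay within a few units of it. The differences were 1.58 in recurrences, 1.77 in TI-KM primaries and 2.03 in TI-K primaries, and limma called none (adjusted p = 0.187, 0.109 and 0.0709). Their size depends on the offset, because the normal lung signal lies under it.

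Il1b (chr2:129364569-129371164), the secreted partner of Il1a, gave 724, 302, 317, 290, 231 and 138 in recurrences 1 to 6. It ranged between 277 and 741 in TI-KM primaries, with a median of 332, and between 224 and 1530 in TI-K primaries, with a median of 413, against 237 in the normal lung. The normal lung exceeded recurrences 5 and 6 and 1 TI-K primary, and the other 25 tumours exceeded it. The limma differences from normal lung were 0.30 in recurrences, 0.60 in TI-KM primaries and 0.96 in TI-K primaries (adjusted p between 0.366 and 0.814).

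Il1rn encodes the receptor antagonist that blocks both IL-1 alpha and IL-1 beta. Its probe set with the highest mean, 1451798_at, gave 550, 429, 268, 600, 178 and 432 in recurrences 1 to 6. It ranged between 148 and 633 in TI-KM primaries, with a median of 390, and between 122 and 990 in TI-K primaries, with a median of 216, against 49.7 in the normal lung. Every tumour exceeded the normal lung by this probe set, which passed the percentile in tumour arrays alone. The filter favours this direction, so its calls as higher are descriptions only. The limma difference was 2.52 ± 0.72 (SE) in recurrences (5.74-fold, Benjamini-Hochberg adjusted p = 0.0175), 2.38 ± 0.69 in TI-KM primaries (5.20-fold, adjusted p = 0.0163) and 2.04 ± 0.70 in TI-K primaries (adjusted p = 0.0501). Limma fitted to every kept probe set gave smaller differences for 1425663_at, 1.18 in recurrences, 1.05 in TI-KM primaries and 0.87 in TI-K primaries, and called none (adjusted p = 0.195, 0.247 and 0.395). The calls by 1451798_at were lost with an offset of 100 (1.70 in recurrences, adjusted p = 0.0508, and 1.58 in TI-KM primaries, adjusted p = 0.0514). In recurrences the call was also lost with the 3'/5' ratio as a covariate (2.10, adjusted p = 0.0778). The remaining probe set, 1423017_a_at, passed the percentile in 3 arrays and was not kept. It gave 66.8 in the normal lung, 3 of the 28 tumours exceeded that value, and no direction can be read from it at these signals. The kept probe sets disagree on the size of the difference.

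**Figure D2:**
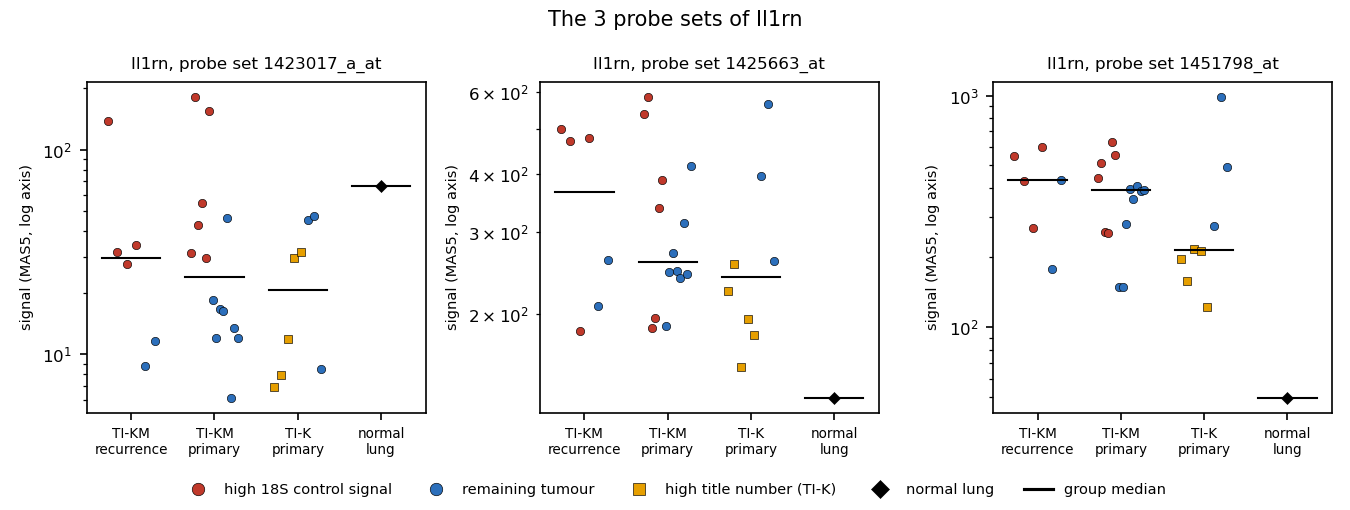
Signals (MAS5 units, log axis) of the 3 Il1rn probe sets by array, with TI-KM recurrences at the left, then TI-KM primaries, TI-K primaries and the normal lung, and group medians as lines. All 28 tumours lie above the normal lung for 1425663_at and 1451798_at, and 3 of 28 do for 1423017_a_at, which passed the percentile in 3 arrays.

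Il6 (chr5:30013114-30019975), whose product signals through STAT3 to induce acute phase genes, gave 91.1, 11.03, 139, 29.003, 38.8 and 20.9 in recurrences 1 to 6. It ranged between 12.5 and 84.7 in TI-KM primaries, with a median of 46.0, and between 22.5 and 122 in TI-K primaries, with a median of 40.3, against 2.75 in the normal lung. The normal lung was below every tumour, but most of these signals lie under the 40th percentile of their arrays. The differences of 1.48 in recurrences, 1.47 in TI-KM primaries and 1.56 in TI-K primaries were not called by limma (adjusted p = 0.187, 0.165 and 0.150) and were 0.54, 0.50 and 0.55 with an offset of 100.

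Csf2 gave 28.7, 207, 20.7, 467, 245 and 433 in recurrences 1 to 6. TI-KM primaries ranged between 277 and 871 with a median of 449, and TI-K primaries between 271 and 831 with a median of 449, against 95.7 in the normal lung. All 22 primary tumours exceeded the normal lung, and recurrences 1 and 3 lay under it. The limma difference from normal lung was 0.58 ± 0.83 (SE) in recurrences (Benjamini-Hochberg adjusted p = 0.714), 2.14 ± 0.80 in TI-KM primaries (adjusted p = 0.0698) and 2.00 ± 0.82 in TI-K primaries (adjusted p = 0.106). Tnf (chr17:35199367-35202007), the macrophage cytokine that activates NF-kappaB, gave 34.4, 23.8, 23.7, 14.6, 78.3 and 9.85 in recurrences 1 to 6. It ranged between 10.4 and 148 in TI-KM primaries and between 12.2 and 83.3 in TI-K primaries, against 18.2 in the normal lung, and 19 of 28 tumours exceeded that value. Fitted without the filter on low signals, its differences from normal lung were 0.29, 0.42 and 0.37 in recurrences, TI-KM primaries and TI-K primaries (limma, adjusted p between 0.777 and 0.841).

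The array sets moved these counts. With the 13 remaining tumours and the normal lung alone, limma called 6 of the 8 genes higher in TI-KM primaries, where 26.2% of all genes were called, and 6 of 8 in TI-K primaries, where 23.8% were called. Those 6 were Il33, Il18, Il1a, Il1rn, Il6 and Csf2 in both groups. Among the 2 recurrences of that set Il33, Il18 and Csf2 were called higher than the normal lung (20.1% of all genes called), and Il1rn was not (2.10, adjusted p = 0.0532). Il1a, Il1rn and Il6 were kept through tumour arrays alone. The filter favours calling these genes higher, so their part in the counts is a description only. The shares of all genes given here count calls in both directions.

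Cell type markers also differed from normal lung, some lists higher and some lower. Over all genes 12.5% were called in recurrences, 14.9% in TI-KM primaries and 13.5% in TI-K primaries. Of all genes 6.4%, 7.69% and 6.7% were called as higher, and the rest of those calls were lower. The 6 epithelial markers were all called higher than in normal lung in each tumour group, their summed signal lying between 18123 and 71605 in recurrences, 40800 and 60923 in TI-KM primaries and 33157 and 58227 in TI-K primaries, against 7457 in the normal lung. Of 7 alveolar type II markers 6 were called higher in each tumour group. The other, Sftpc, was not called and went the other way, with 28262 in the normal lung. Its medians were 13617 in recurrences, 16570 in TI-KM primaries and 18660 in TI-K primaries. Of 11 macrophage markers 4 were called higher in each, with sums between 7317 and 48203 in recurrences, 13618 and 26765 in TI-KM primaries and 17731 and 37198 in TI-K primaries, against 14906 in the normal lung. Other lists had members called lower. Of 6 endothelial markers 1 was called lower in recurrences, 3 in TI-KM primaries and 3 in TI-K primaries, with sums of at most 8867, 7203 and 7386, against 13250 in the normal lung. Of 7 fibroblast markers 3 were called lower in TI-KM primaries, and of 4 mesothelial markers 1 was called lower in TI-KM primaries and 1 in TI-K primaries. The 4 club cell markers had median differences of -0.83 in recurrences, -1.65 in TI-KM primaries and -2.16 in TI-K primaries, and the 6 neutrophil markers -0.39, -0.70 and -1.15, with none called in either list. None of the epithelial, alveolar type II and macrophage markers was listed at 0. Their part in the cytokine differences was not tested.

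Between recurrences and TI-KM primaries, which share all their transgenes, Csf2 had the smallest p of the 8 cytokine genes. Recurrences 1, 2, 3 and 5 lay below every TI-KM primary, and recurrences 4 and 6 lay within the range of the primaries. The limma difference was -1.56 ± 0.38 (SE), a 2.95-fold lower level, with an unadjusted p of 2.43e-04 and a Benjamini-Hochberg adjusted p of 0.0646. It is therefore not called, as is true of all 8 genes, in a comparison where 0.26% of all genes were called. At an unadjusted p below 0.05 Csf2 and Il33 differed, 2 of 8, against 12.4% of all genes. Of the 20 fits without 1 tumour, 2 called Csf2, those without recurrence 4 (-1.86, adjusted p = 0.0296) and without recurrence 6 (-1.84, adjusted p = 0.0232). The differences nearest to 0 came without recurrence 1 (-1.20, adjusted p = 0.207) and without recurrence 3 (-1.14, adjusted p = 0.162).

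The Csf2 difference was also computed within array sets. With the sets as a block it was -1.35 (limma, adjusted p = 0.0541), where 0.705% of all genes were called. In the high-18S set, Csf2 lay between 20.7 and 467 in 4 recurrences and between 277 and 449 in 6 TI-KM primaries, a difference of -1.71 (adjusted p = 0.413). In the remaining set it was 245 and 433 in 2 recurrences and between 405 and 871 in 8 TI-KM primaries, a difference of -0.82 (adjusted p = 0.407), where 0.0822% of all genes were called. The lower level in recurrences thus appeared in both sets, without a call in either alone. With the 3'/5' ratio as a covariate it was -1.61 (adjusted p = 0.483), in a fit that called no gene.

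**Figure D3:**
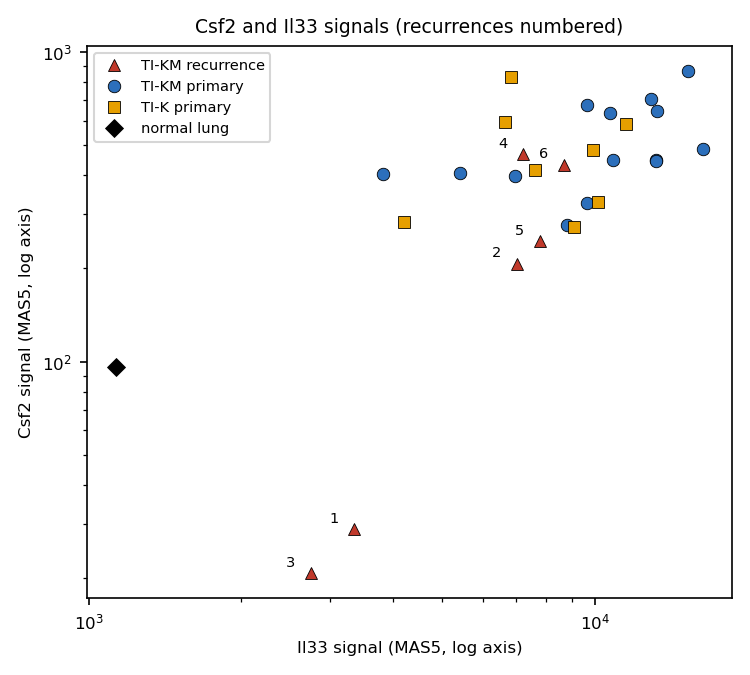
Csf2 signal against Il33 signal (MAS5 units, both axes log) in 29 arrays, with TI-KM recurrences as numbered triangles, TI-KM primaries as circles, TI-K primaries as squares and the normal lung as a diamond. Recurrences 1 and 3 are lowest of all tumours on both axes, at 28.7 and 20.7 for Csf2 and 3351 and 2748 for Il33.

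Il33 was lower in recurrences than in TI-KM primaries by -0.83 ± 0.27 (SE; unadjusted p = 0.00383), which missed the threshold after adjustment (limma, Benjamini-Hochberg adjusted p = 0.178). Recurrences 1 and 3 lay below every TI-KM primary, and 11 of the 14 primaries lay above every recurrence. With the array sets as a block the difference was -0.70, within the high-18S set -0.83 and within the remaining set -0.49. Recurrences 1 and 3 were the lowest tumours for both Il33 and Csf2, but they differ in cell markers. Recurrence 3 had the lowest summed macrophage signal of any array, 7317, and recurrence 1 the highest, 48203. Recurrence 3 had the highest epithelial sum among the recurrences, 71605, and recurrence 1 the lowest, 18123.

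The other 6 genes gave smaller differences between recurrences and TI-KM primaries. The limma differences were -0.40 for Il18 (95% interval -1.08 to 0.27), -0.30 for Il1b (-0.89 to 0.29) and -0.23 for Tslp (-0.88 to 0.42). They were -0.19 for Il1a (-0.90 to 0.52), 0.14 for Il1rn (-0.52 to 0.80) and 0.0079 for Il6 (-0.65 to 0.67). All 6 intervals include 0 and allow a difference in either direction. Of these 6 genes Tslp alone had 1 sign in both array sets. Il18 turned to 0.19 within the remaining set, and Il1b differed by 0.16 within the high-18S set and by -1.07 within the remaining set. Tnf differed by -0.13 in the fit without the filter.

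Mad2 was the labelled difference between TI-KM and TI-K primaries, and no cytokine gene was called between them (0 of 8, with 8.01% of all genes called). At an unadjusted p below 0.05 Il18 alone differed, 1 of 8, against 27.9% of all genes. Il18 was lower in TI-KM primaries by -0.76 ± 0.30 (SE; limma, Benjamini-Hochberg adjusted p = 0.0978), and 6 of the 8 TI-K primaries lay above the highest TI-KM primary, 2834. Within the remaining set Il18 lay between 1122 and 2834 in 8 TI-KM primaries and between 3213 and 10346 in 3 TI-K primaries. These did not overlap, as was so in this direction for 0.836% of all genes, and the difference was -1.22 (adjusted p = 0.358, in a fit that called 0 genes in this comparison).

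Il33 lay 0.34 higher in TI-KM primaries than in TI-K primaries (95% interval -0.15 to 0.83) and Csf2 0.14 higher (-0.56 to 0.83). Tslp differed by -0.44 (-1.03 to 0.16), Il1a by -0.26 (-0.90 to 0.38) and Il6 by -0.095 (-0.69 to 0.50), and Tnf by 0.050 without the filter. Limma called none of them. Several of these values moved with the array sets. Il1b differed by -0.36 over all arrays and by -1.13 with the sets as a block (adjusted p = 0.691). Il1rn was 0.34 higher in TI-KM primaries over all arrays and turned to -0.78 with the block (adjusted p = 0.975). Tslp turned to 0.25 and Il1a and Il6 moved to -0.91 and -0.95, also without a call. The block rests on 3 TI-K primaries, because the high-number set holds no TI-KM tumour.

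Recurrences against TI-K primaries gave the only calls of cytokine genes between tumour groups, Csf2 and Il18, both lower in recurrences (2 of 8 genes; 18.9% of all genes were called, 6.73% as lower). Csf2 differed by -1.43 ± 0.42 (SE, 2.69-fold lower; limma, Benjamini-Hochberg adjusted p = 0.0188), and 4 of the 6 recurrences lay under the lowest TI-K primary. Il18 differed by -1.17 ± 0.37 (2.24-fold lower, adjusted p = 0.0272), where 3 of 6 recurrences lay under the lowest TI-K primary and 5 of 8 TI-K primaries above every recurrence. Both calls were lost with the array sets as a block, where Csf2 differed by -1.31 (adjusted p = 0.332) and Il18 by -1.40 (adjusted p = 0.241), and 0.0959% of all genes were called. Within the remaining set the differences were -0.89 and -1.03 (adjusted p = 0.303 and 0.377), and 0.13% of all genes were called. In a fit of these 2 groups alone, which still called 2825 genes, neither passed (adjusted p = 0.0623 for Csf2 and 0.0554 for Il18). Genotype, relapse and array set differ together in this comparison and cannot be told apart beyond those values. The Csf2 call was lost without recurrence 1 (-1.06, adjusted p = 0.0664) or 3 (-1.01, adjusted p = 0.0718). The Il18 call was lost without recurrence 1, 2 or 3 or without TI-K primary 4 or 6, with differences between -1.09 and -0.92.

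The remaining genes were not called between recurrences and TI-K primaries. Il1b differed by -0.66 (95% interval -1.31 to -0.0081; limma adjusted p = 0.136), and by -2.05 within the remaining set, where recurrences 5 and 6 gave 231 and 138 against 869, 1530 and 389 in TI-K primaries 6 to 8 (adjusted p = 0.0950). Without recurrence 1, which had the highest Il1b of the recurrences, the difference over all sets was -0.91 and called (adjusted p = 0.0496). Il33 differed by -0.49 over all arrays and by 0.10 within the remaining set. Tslp differed by -0.67, Il1a by -0.45, Il6 by -0.087 and Tnf by -0.080, and Il1rn by 0.48. With the sets as a block Il1rn turned to -0.76 and Tslp to 0.093, and Il1a and Il6 moved to -1.25 and -1.002, none of them called.

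**Figure D4:**
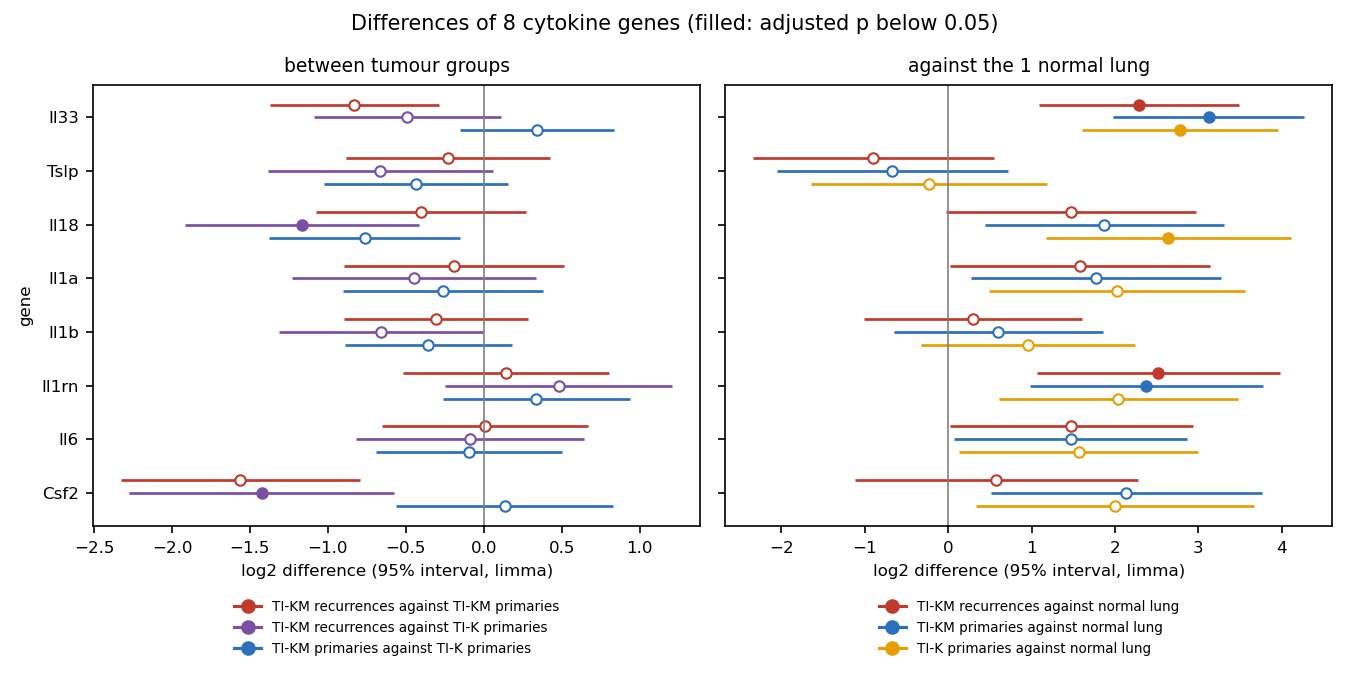
Log2 differences (limma, with 95% intervals) of the 8 cytokine genes kept, between tumour groups at the left and against the normal lung at the right, with the first-named group over the second. Filled points have an adjusted p below 0.05, and these are Il33 in 3 comparisons, Il1rn in 2, Il18 in 2 and Csf2 in 1.

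Genes of the same pathways were read from 7 lists of receptors, processing enzymes, targets and related cytokines, with 76 genes kept. Against normal lung 13 were called higher and 1 lower in recurrences, 14 and 1 in TI-KM primaries and 13 and 2 in TI-K primaries. Over all genes 12.5%, 14.9% and 13.5% were called in these comparisons, 6.4%, 7.69% and 6.7% as higher. The lists were chosen with earlier results of these arrays known, and their counts below are to be read beside those shares, with nothing particular to a list drawn from them. Of 12 receptors and regulators of the interleukin-1 family, 3 were called higher than in normal lung in recurrences, in TI-KM primaries and in TI-K primaries, and none lower. Myd88, the adaptor that carries IL-1, IL-18 and IL-33 signals, was among them in each group, with differences of 1.204, 1.38 and 1.29 (limma, adjusted p = 0.0163, 0.00324 and 0.00743). Its signal was between 1214 and 1974 in recurrences, 1136 and 2620 in TI-KM primaries and 1529 and 2386 in TI-K primaries, against 705 in the normal lung. Il18rap, the accessory chain of the IL-18 receptor, was 2.06 higher in TI-KM primaries and 2.40 higher in TI-K primaries than in normal lung. Sigirr, an inhibitory receptor of the family, was 0.91 higher in recurrences (adjusted p = 0.0288).

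Among 11 receptors of the other cytokines, 0 were called in recurrences, 1 in TI-KM primaries and 2 in TI-K primaries, all higher than in normal lung. Csf2rb, the signalling chain of the GM-CSF receptor, was 2.08 higher in TI-K primaries (4.24-fold, limma adjusted p = 0.0176). Its signal ran between 2233 and 6937 in TI-K primaries, against 806 in the normal lung. Osmr, a receptor of the IL-6 family, was 1.29 higher in TI-KM primaries (adjusted p = 0.0329) and 1.28 higher in TI-K primaries (adjusted p = 0.0401). Of 8 inflammasome and processing genes, 2 were called higher in recurrences, 1 in TI-KM primaries and 1 in TI-K primaries. Ctss, a lysosomal protease of macrophages, was called in each group, and Pycard, the inflammasome adaptor ASC, in recurrences (1.76, adjusted p = 0.0436).

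Lcn2 and Chil3 had the largest differences from normal lung among the pathway genes named here. Of 10 STAT3 and acute phase genes, 3 were called higher and 1 lower in recurrences, 3 and 1 in TI-KM primaries and 2 and 1 in TI-K primaries. Lcn2, an iron-binding acute phase protein, lay between 6512 and 22605 in recurrences, 9915 and 23478 in TI-KM primaries and 15508 and 18733 in TI-K primaries, against 229 in the normal lung. Its limma differences were 6.06, 6.16 and 6.12, and adjusted p was 6.63e-12, 1.38e-12 and 3.11e-12. Of 6 type 2 response genes, Chil3 and Ccl17 were called higher in each tumour group. Chil3, a chitinase-like protein of alternatively activated macrophages, was 4.64 higher in recurrences, 5.04 in TI-KM primaries and 5.38 in TI-K primaries. Ccl17, a chemokine for type 2 T cells, was 3.25, 3.91 and 3.07 higher. These lists also hold genes that went the other way, among them Pim1 in recurrences (-1.98, adjusted p = 0.0171) and Cebpb in TI-K primaries (-1.45, adjusted p = 0.0417).

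Of 14 NF-kappaB subunits and targets, Icam1 was the 1 called in each comparison with normal lung. It was also the 1 called between recurrences and TI-KM primaries, where 0.26% of all genes were called, and between recurrences and TI-K primaries. Icam1, an adhesion molecule for leukocytes, lay between 4031 and 10300 in recurrences with a median of 9118. It lay between 8396 and 23111 in TI-KM primaries and between 11975 and 15661 in TI-K primaries, against 3744 in the normal lung. Every recurrence lay below every TI-K primary, a separation that 0.945% of all genes showed. The limma difference between recurrences and TI-KM primaries was -0.74 ± 0.17 (SE, 1.67-fold lower; Benjamini-Hochberg adjusted p = 0.0422), and with the array sets as a block -0.71 (adjusted p = 0.0431). The call was lost with the 3'/5' ratio as a covariate (-0.45, adjusted p = 0.757), in a fit that called no gene in this comparison. That ratio averaged 1.32 in recurrences and 2.16 in TI-KM primaries. It was also lost with a common median (-0.80, adjusted p = 0.189), in a fit of the 2 groups alone (adjusted p = 0.129), without the filter (adjusted p = 0.0594), with the arrays of title number 76 averaged (-0.72, adjusted p = 0.0628), within the high-18S set (-0.84, adjusted p = 0.428) and within the remaining set (-0.51, adjusted p = 0.0999). Leaving out 1 tumour at a time kept the call in 8 of 20 fits, with differences between -0.81 and -0.54. Against TI-K primaries the difference was -0.73 (adjusted p = 0.00844). That call was lost with the block (-0.68, adjusted p = 0.296), within the remaining set (-0.52, adjusted p = 0.108) and with the 3'/5' covariate (-0.44, adjusted p = 0.0953). No other gene of the 7 pathway lists was called between recurrences and TI-KM primaries.

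Between recurrences and TI-K primaries the calls included both chains of the IL-18 receptor. Il18r1, the binding chain, lay between 723 and 3377 in recurrences and between 2847 and 6707 in TI-K primaries, a difference of -1.62 ± 0.33 (SE; limma, adjusted p = 0.00219). Il18rap differed by -0.85 (adjusted p = 0.0225). Of 76 pathway genes 4 were called higher and 4 lower, where 18.9% of all genes were called. Among 15 other interleukins and related cytokines, 3 were higher and 1 lower. Lif, an IL-6 family cytokine, was lower (-1.02, adjusted p = 0.0167). Il1f9, which encodes the epithelial cytokine IL-36 gamma, was higher (1.25, adjusted p = 0.0172), as was the anti-inflammatory Il10 (1.14, adjusted p = 0.0178). Il10 was weak, between 16.4 and 39.4 in TI-K primaries, under the 40th percentile of every array, and between 27.6 and 159 in recurrences. It was kept through TI-KM arrays alone, so the filter favours this direction and its call is a description only. Retnla of the type 2 list was also higher (1.68, adjusted p = 0.0463). None of these pathway genes was called with the array sets as a block, where Il1f9 and Il10 shrank to 0.095 and 0.22, and Il18r1 differed by -1.23 (adjusted p = 0.300). With the 3'/5' ratio as a covariate the calls of Il18rap, Il1f9 and Retnla were lost too (adjusted p = 0.0810, 0.0503 and 0.113). The Il18rap call was also lost with the mean of its kept probe sets (-0.45, adjusted p = 0.128). A common median lost the calls of Il18rap (-0.95, adjusted p = 0.0504) and Retnla (1.57, adjusted p = 0.0771).

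Between TI-KM and TI-K primaries, 3 of the 76 pathway genes were called, a smaller share than the 8.01% of all genes. Adam17, the protease that sheds TNF and the IL-6 receptor, was lower in TI-KM primaries (-0.44, limma adjusted p = 0.0393). Retnla (1.62, adjusted p = 0.0388) and Il1f9 (0.93, adjusted p = 0.0456) were higher. With the sets as a block no gene was called in this comparison. Adam17 and Retnla then differed by -0.49 and 1.41, and Il1f9 by 0.040. The Adam17 call was also lost with the mean of its kept probe sets (-0.22, adjusted p = 0.211) and with a common median (-0.49, adjusted p = 0.126). Averaging the arrays of title number 76 lost the calls of Retnla (1.63, adjusted p = 0.0525) and Il1f9 (0.89, adjusted p = 0.0644).

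Among the 28 tumours, after each group was centred within each array set, a few pairs of cytokine genes varied together. Most pairs did so weakly. The most extreme values of Pearson's r were 0.63 for Il1a with Il1b, 0.52 for Il33 with Csf2, 0.43 for Il33 with Il18 and -0.49 for Il6 with Csf2. Every other pair lay between -0.21 and 0.38. The value for Il33 with Csf2 includes the recurrences described above as the lowest tumours for both genes. These r values are descriptions over arrays that share scaling and tissue composition. The mean of the macrophage markers had r of 0.63 with Il1rn, 0.53 with Il33 and 0.46 with Il18, and the mean of the epithelial markers had r of -0.47 with Il1a. That epithelial mean had r of 0.021 with Il33 and -0.0015 with Il18. Tslp, whose signals are weak, had r of 0.49 with the mast cell and basophil markers. Its r was 0.46 with the neutrophil, 0.39 with the club cell and 0.39 with the fibroblast markers.

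The genes whose centred pattern was most like each cytokine gene over the 28 tumours were also recorded. For Il33 they were Cpn1 (r = 0.82), Reps2 (0.79) and Cachd1 (0.79), and for Il18 Vps29 (0.85), Mcoln3 (0.78) and Pnpla7 (0.77). For Il1b they were Clec4d (0.81), a receptor of myeloid cells, Ccl9 (0.75), a myeloid chemokine, and Gpr84 (0.74), a receptor that myeloid cells induce in inflammation. For Il1a they were Cd300lb (0.73), Syn2 (0.70) and Plekho2 (0.69). For Il1rn they were Letm1 (0.76), Gnb2 (0.71) and Csf2rb2 (0.70), a GM-CSF receptor family chain. For Il6 they were Rc3h1 (0.73), Krtap31-1 (0.70) and Nxnl1 (0.70), and for Tslp Plekhg3 (0.74), Cdc42ep2 (0.74) and Slit2 (0.72).

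For Csf2 the nearest genes were Naxe (r = 0.81), Fstl3 (0.78) and Prm1 (0.75). Without the centring these were 0.66, 0.23 and 0.64. Naxe, a metabolite repair enzyme, gave 4351, 9523, 4718, 8774, 8242 and 11056 in recurrences 1 to 6, so recurrences 1 and 3 were lowest, as for Csf2. Prm1, which encodes a sperm protamine, gave 1.28, 4705, 1.05, 5521, 0.73 and 0.98 in the same recurrences. It was near 0 in recurrences 1 and 3, which had the lowest Csf2, but also in recurrences 5 and 6, which had 245 and 433 for Csf2.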

How the data were processed

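Total RNA of 28 mouse lung tumours and 1 normal lung was amplified by the two-cycle protocol and hybridised to Affymetrix mouse arrays, per the labels' protocols. The deposited table holds a MAS5 signal, a linear intensity, for 45101 probe sets, per the submitters' processing notes. No version of MAS5 was found in the sources used here. The 2% trimmed mean of each array came out at 500.003, so the authors' values were scaled per array. Because each group rests on few arrays, their number limits the precision.

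Of the probe sets, 64 were controls, 34958 carried 1 gene, 932 several and 9160 none in the annotation used. Each gene was represented by its kept probe set with the highest mean. Log2(signal + 20) was fitted with limma 3.58.1 (R 4.3.3; lmFit, contrasts, eBayes with trend) to all 29 arrays in 4 groups, with Benjamini-Hochberg adjustment over 14602 genes that passed the 40th percentile of an array in at least 6 arrays. The script was tested on simulated data. Figures were drawn with matplotlib 3.10.9.

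The cytokine genes and pathway lists were chosen with earlier results of these data known. All cytokine genes are reported. Pathway genes are named if called, up to 3 per list with the smallest p between tumour groups and up to 2 against normal lung, and genes with a like pattern by the 3 highest correlations over 28 tumours. Alternatives were offsets of 5 and 100, no filter, a common median, quantile normalization, the mean of kept probe sets, every kept probe set tested on its own, fits of the 2 groups compared, array sets as a block or alone, the 3'/5' ratio as a covariate, an average of the arrays sharing a title number, and leaving out each array.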

Additional observations from a re-analysis of the deposited data

Results flagged for a closer look

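Recurrence 1 gave 138 for the Il1rn probe set 1423017_a_at, against 34.3 in the next highest recurrence, a gap of 0.628 of the range of the 6 recurrences on the log2(signal + 20) scale, just past Dixon's 95% critical value of 0.625. It was the 1 such value among 22 groups of arrays tested, about as many as chance gives at that level. The same array had the highest summed signal of macrophage markers, 48203, and of B cell markers, 20248, and their part in this value was not tested.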

How the results depend on the processing

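No paired analysis was possible because the labels give the groups no shared replicate numbers. The limma counts of called cytokine genes (of 8) changed as follows. Recurrences against TI-K primaries had 2, and 1 with a common median or with the 3'/5' ratio as a covariate. That count was 0 in a fit of the 2 groups alone, with the array sets as a block and within the remaining set, and between 0 and 2 without 1 tumour. Recurrences against normal lung had 2, and 1 with an offset of 100, a common median, the high-18S arrays alone or the 3'/5' covariate, and stayed at 2 without 1 recurrence. TI-KM primaries against normal lung had 2, then 1 with an offset of 100 and 6 in the remaining set, with 2 to 3 without 1 tumour. TI-K primaries against normal lung had 2, then 4 with an offset of 5 and 6 in the remaining set, with 2 to 3 without 1 tumour. Il1a, Il1rn and Il6, among the 6 in both primary groups, were kept through tumour arrays alone. Recurrences against TI-KM primaries had 0, with 0 to 1 without 1 tumour, and TI-KM against TI-K primaries 0 throughout. The cause of these changes was not tested, beyond the smaller number of arrays in the fits within a set. The high-18S set holds no TI-K primary, and a block could not be fitted against normal lung.

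Of the values per gene, with the fits without 1 tumour set apart, the side of the threshold was the same in 89 of 89 for TI-KM against TI-K primaries. It was the same in 97 of 97 for recurrences against TI-KM primaries and 81 of 89 for recurrences against TI-K primaries. Against normal lung it was the same in 73 of 81 for recurrences, 75 of 81 for TI-KM primaries and 63 of 73 for TI-K primaries. In the fits without 1 tumour it was the same in 176 of 176, 158 of 160 and 104 of 112 for those tumour comparisons, in that order. Against normal lung those fits gave 48 of 48, 111 of 112 and 62 of 64. No called value changed its sign. Between recurrences and TI-KM primaries 10 uncalled ones did, and 7 in the fits without 1 tumour. Calls over all genes moved too. Recurrences against TI-KM primaries had 38, then 103 with the block, 72 with quantile normalization, 12 in the remaining set, 1 in the high-18S set and 0 with the 3'/5' covariate. Recurrences against TI-K primaries had 2758, then 14 with the block, 19 in the remaining set and 1558 with the covariate. TI-KM against TI-K primaries had 1170, then 1866 with quantile normalization and 0 with the block or in the remaining set. Against normal lung recurrences had 1819, then 1073 with a common median and 2933 in the remaining set, TI-KM primaries 2169, then 1391 and 3820, and TI-K primaries 1969, then 1198 and 3471. A common median moved the median of all genes in TI-K primaries against normal lung to 0.13, against -0.00088. Signals under the offset, as for Il6 and Il1a in the normal lung, limit their fold changes.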
